A study of Mus musculus with 8 samples.

Results

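The genes described here are 49 that encode the machinery of transmitter release and the scaffolds on both sides of a synapse. They were chosen by symbol from the deposited table of read counts, which lists 16109 genes, and all 49 were found in it. Retinas were taken from C57BL/6 mice at postnatal day 5, and polyadenylated RNA was sequenced from 4 libraries labelled WT and 4 labelled C3 KO. Complement component C3 sits where the pathways of complement meet and marks material for phagocytes. The labels give the genotype as wild type or C3 knockout, and the kind of allele was not stated. All libraries share the strain, the age and 1 preparation: removal of the hyaloid vessels, a fetal network inside the eye, preceded RNA extraction. The number of animals behind a library was not stated either, so p-values measure only the spread between these libraries, which may be technical.

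Transmitter is released when a vesicle protein of the VAMP family pairs with syntaxin and SNAP25 in the plasma membrane, forming the SNARE complex that fuses the membranes. Complexins clamp that complex, synaptotagmins trigger it when calcium enters, and active zone proteins hold primed vesicles next to calcium channels. Across the cleft, MAGUK, SAPAP, Shank and Homer proteins link glutamate receptors to the cytoskeleton, while neurexins and neuroligins join both sides. The retina uses conventional synapses, made by amacrine cells, and ribbon synapses, made by photoreceptors and bipolar cells, in which a plate built of RIBEYE holds many vesicles. In the first postnatal week of the mouse the conventional synapses of the inner retina form before most ribbon synapses.

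The labels must be read with caution, because C3 went against them. The libraries labelled WT held 33 to 55 C3 reads and those labelled C3 KO held 1419 to 1718, out of 16503564 to 19608824 reads per library. C3 was 32.8-fold higher under the C3 KO label (log2 fold change 5.04 ± 0.10 (SE), adjusted p = 1.39e-20 by edgeR). Higher and lower below therefore mean higher or lower under the C3 KO label than under the WT label, and rest on labels that the C3 reads contradict. Sex-linked transcripts also moved with the labels. Xist stood between 295 and 2440 CPM under the WT label and between 1.48 and 2.65 CPM under the C3 KO label, and the library labelled WT replicate 3 carried Y-linked reads beside Xist. Replicate 3 is the only WT-labelled library with a Y-linked level near that of the C3 KO label, so sex can barely be told apart from the label. CPM is the share of a library's reads that fall on a gene, in parts per 1e+06 after TMM scaling. Markers of retinal neurons were abundant, with Crx, a photoreceptor transcription factor, at 1342 ± 64.8 CPM (SD, n = 4) under the WT label.

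Read per transcript length, the 49 synaptic genes ranged from 0.833 to 239.9 RPKM. RPKM values are levels per length, reads per kilobase of transcript and per 1e+06 reads, turned back from the deposited log2 values and averaged over the 8 libraries. The highest was Cplx2, a complexin of conventional synapses, at 239.9 RPKM, followed by Syp, a membrane protein of every synaptic vesicle, at 200.01 RPKM and Snap25, a membrane-bound SNARE, at 171 RPKM. Their order held in both groups, with 239 ± 4.69, 211 ± 9.25 and 165 ± 4.56 RPKM (SD, n = 4) under the WT label and 241 ± 9.17, 189 ± 8.23 and 178 ± 4.29 RPKM under the C3 KO label. Cplx2 and Syp were separated by more than their SDs under both labels. Syp and Snap25 were separated in this way under the WT label only, and their SD ranges overlapped under the C3 KO label.

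The least abundant members were the scaffold Dlgap2 at 0.833 RPKM, the calcium sensor Syt2 at 0.882 RPKM and the vesicle SNARE Vamp1 at 2.49 RPKM. Under the C3 KO label Dlgap2 at 0.983 ± 0.120 and Syt2 at 0.957 ± 0.189 RPKM did not differ beyond their SDs. The median over the 49 genes was 21.5 RPKM, against 8.11 RPKM over all 15850 genes tested. Paralogues were often far apart. Vamp2 reached 120.3 RPKM where Vamp1 reached 2.49, and Syt1 reached 109.5 RPKM where Syt2 reached 0.882. By median RNA level, genes of vesicles and of fusion ranked above scaffold genes. The median was 92.3 RPKM for the 5 SNARE genes and 59.3 for the 10 vesicle genes. It was 15.8 for the 9 active zone genes and 11.7 for the 12 postsynaptic scaffold genes. Single genes crossed this order. Vamp1 and the vesicle gene Sv2c, at 4.82 RPKM, lay below the scaffold median, and the scaffold Dlg4, at 65.2 RPKM, lay above the vesicle median.

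**Figure D1:**
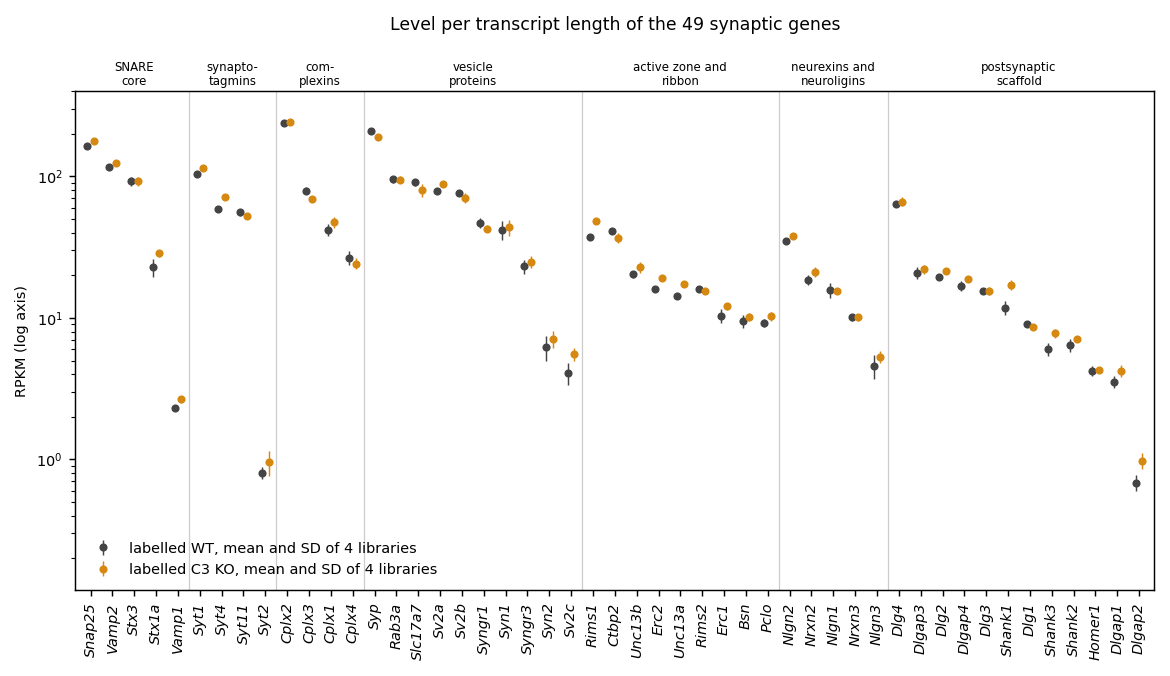
Mean RPKM on a log axis of each of the 49 genes under the WT label (dark) and the C3 KO label (orange), with the SD over 4 libraries, ordered by level within each role. Cplx2, Syp and Snap25 stand highest and Dlgap2, Syt2 and Vamp1 lowest.

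Between the labels, the count of calls among the 49 genes was 16 higher and 3 lower for the C3 KO label, while 30 genes did not pass. The call used edgeR's quasi-likelihood test with Benjamini-Hochberg adjustment over 15850 genes and a threshold of 0.05. All 49 genes passed the expression filter. Over all genes tested 8.33% were called higher and 5.98% lower, so the share of members called higher, 32.7%, lay above the background, and the share called lower, 6.12%, lay near it. DESeq2 called 8.84% of all genes higher and 7.2% lower, limma-voom 8.14% and 5.81%, and an unadjusted p below 0.05 took in 15.4% and 13.3%. For genes averaging 10 CPM or more the background was 9.79% higher and 7.83% lower. The counts by role and list given below are to be read against these shares. The members, roles and lists were chosen with earlier results of these data known. The members' median log2 fold change was 0.13, against 0.0044 over all genes, and 37 of the 49 values were positive. The changes were small: the 16 higher genes lay between 1.11-fold and 1.46-fold, and the 3 lower genes were 1.11-fold, 1.11-fold and 1.13-fold lower.

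**Figure D2:**
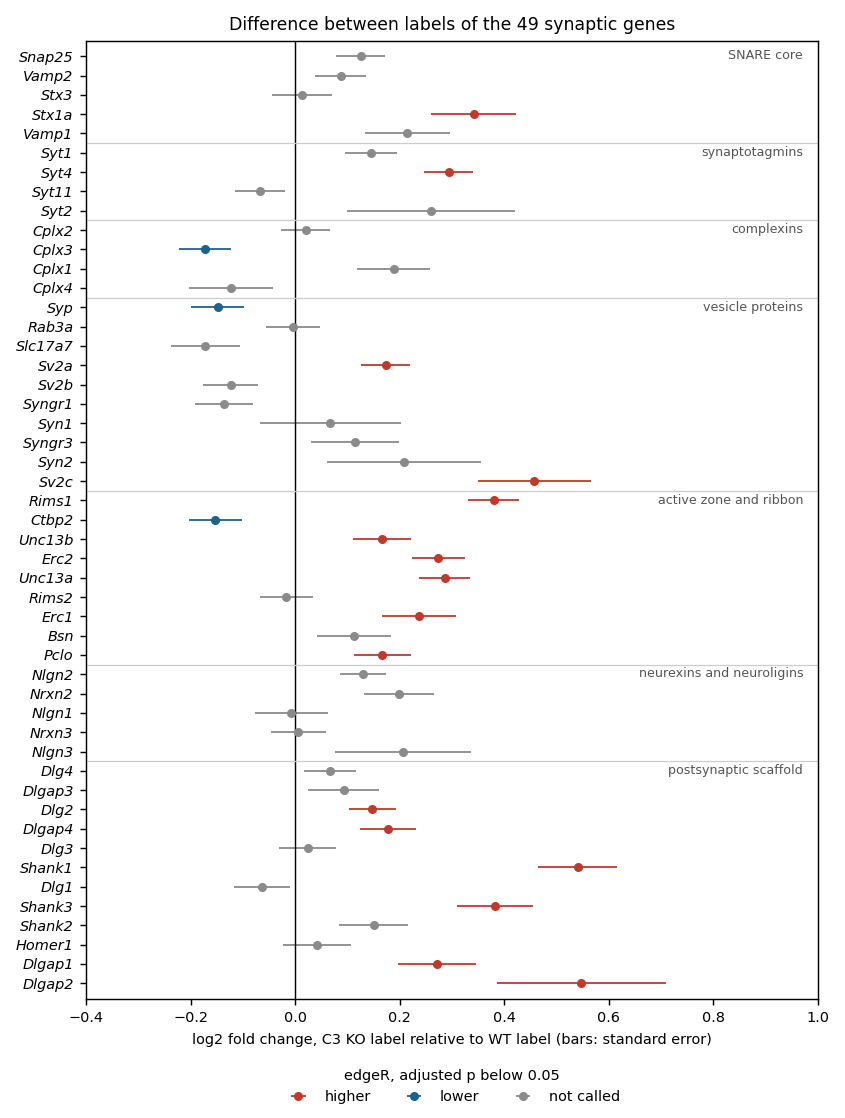
Log2 fold change of each of the 49 genes in the libraries labelled C3 KO relative to those labelled WT, with its standard error, grouped by role. The 16 genes in red were called higher and the 3 in blue lower (edgeR, adjusted p below 0.05), and all lie between −0.17 and 0.55.

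In 16 of the 49 genes the libraries of the labels did not overlap, a share read against 17.4% of all genes tested: 11 of these were called higher, 1 was called lower and 4 were not called. WT replicate 2 held the lowest of the WT-labelled values in 28 of the 49 genes, or 57.1%, against 26.9% of all genes tested. Without it 9 of the 49 genes were called higher and none lower with edgeR, where 861 and 694 genes were called in all, 5.4% and 4.35% of those tested. Leaving out WT replicate 3 gave 9 higher and 1 lower against 6.1% and 4.58% of all genes. Leaving out C3 KO replicate 3 gave 9 higher and none lower against 5.32% and 4.41% of all genes. Leaving out C3 KO replicate 4 gave 9 and 1 against 4.78% and 3.41%. With Y-linked level as a covariate 6 were higher and none lower, against 2.2% and 1.14% of all genes. With 1 surrogate variable 5 were higher against 1.77%, and Syn1 alone was called lower against 1.09%. The 2 covariates correlated with the labels at 0.732 and 0.678. The same 4 genes, Syt4, Rims1, Unc13a and Shank1, were called higher in all 20 alternative fits, and 8 genes kept the call whichever single library was left out, these 4 and Stx1a, Sv2c, Erc2 and Shank3.

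**Figure D3:**
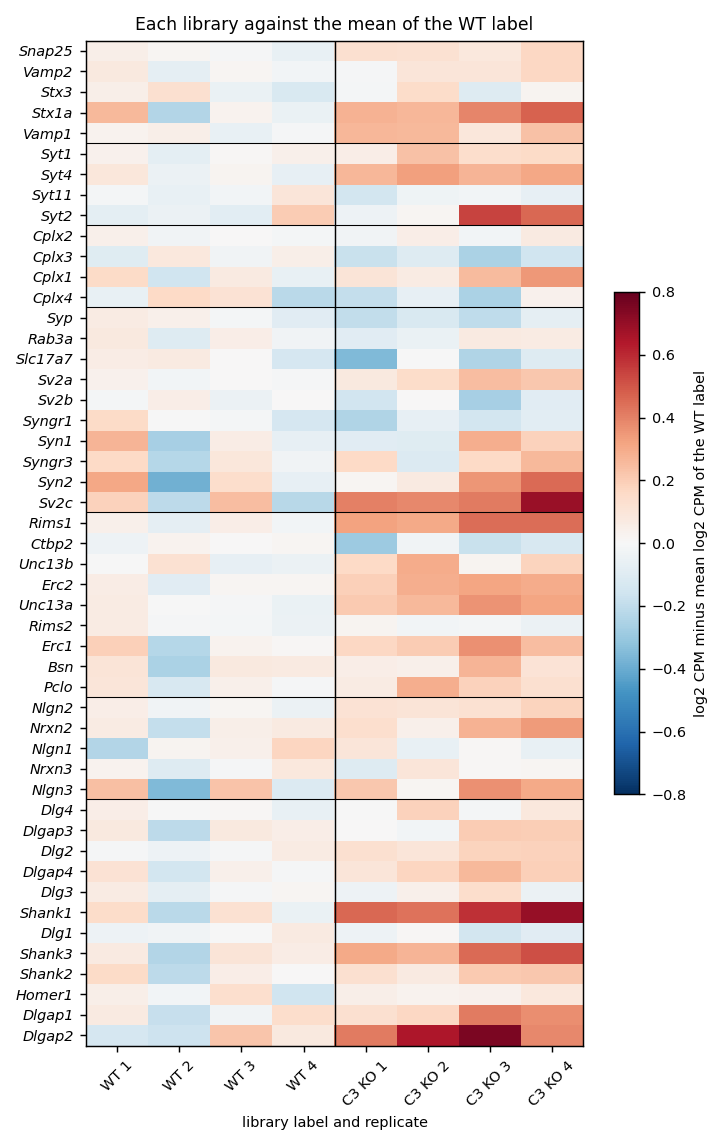
Log2 CPM of each of the 49 genes (rows) in each of the 8 libraries (columns), minus the gene's mean over the 4 libraries labelled WT. The WT 2 column is blue in most rows, and the rows of Shank1, Dlgap2, Rims1 and Syt4 are red in all 4 columns labelled C3 KO.

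Bulk retina does not tell fewer cells of a type from less RNA per cell, and marker lists of retinal cell types moved beside the synaptic genes. Of 8 ganglion cell markers 6 were called higher and none lower, and their summed level ran from 1789 to 2367 CPM under the WT label and from 2265 to 2622 CPM under the C3 KO label. Amacrine and horizontal cell markers had 2 of 7 tested higher, with 798 to 918 CPM against 933 to 963 CPM. Their log2 fold changes went both ways, 4 positive and 3 negative, with a median of 0.031. Pax6, the most abundant of them, weighed most in these sums, with means of 495 and 596 CPM for the WT and C3 KO labels. Slc6a9 went the other way, with means of 139 and 118 CPM. Rod and cone markers had 2 of 10 lower, with 6978 to 7873 CPM against 5991 to 7366 CPM. Among bipolar cell markers 2 of 7 were lower and 1 higher, with 936 to 1158 CPM against 829 to 992 CPM. Pigment epithelium and melanocyte markers had 9 of 12 higher, with 103 to 160 CPM against 290.3 to 320 CPM. Progenitor markers had 4 of 7 lower and 1 higher, red blood cell markers 4 of 4 lower and microglia markers 3 of 8 higher. Astrocyte markers had 2 of 4 higher and fibroblast markers 2 of 3 higher. Pdgfra, which is on both of these lists, was 1 of the 2 genes called in each. Endothelium and Mueller glia markers had 1 of 5 and 1 of 6 higher and none lower. The Mueller glia log2 fold changes were 1 positive, that of Clu, and 5 negative, with a median of −0.131. These counts stand beside 8.33% of all genes tested called higher and 5.98% called lower. No marker tested was at 0 in all libraries. The part of these cell types in the synaptic calls was not tested.

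Of the 5 SNARE genes Stx1a was called higher by edgeR and none lower, and no SNARE gene lay on the lower side by DESeq2, limma-voom or an unadjusted p below 0.05. Stx1a, the syntaxin of conventional synapses, stood at 71.8, 50.9, 61.0 and 57.6 CPM in WT-labelled replicates 1 to 4 and at 72.7, 72.0, 78.5 and 83.0 CPM in C3 KO-labelled replicates 1 to 4. WT replicate 1 came close to the lowest C3 KO value without overlapping it (log2 fold change 0.34 ± 0.082 (SE), adjusted p = 0.00969 by edgeR). Stx3, which takes the place of Stx1a at ribbon synapses, stood at 470.5, 499, 441 and 419.7 CPM against 452, 505, 425 and 464 CPM, with overlapping groups and a log2 fold change of 0.013 ± 0.058 (SE). The log2 ratio of Stx1a to Stx3 overlapped between the labels (difference 0.34, 2-sided exact permutation p = 0.0571, adjusted p = 0.126 over 42 pairs).

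Snap25 stood at 1153, 1126, 1107 and 1069.9 CPM in WT-labelled replicates 1 to 4 and at 1218, 1212, 1182 and 1249.8 CPM in C3 KO-labelled replicates 1 to 4. These groups did not overlap, yet Snap25, which supplies a pair of helices to the SNARE bundle, missed the threshold (log2 fold change 0.13, edgeR adjusted p = 0.0752). Vamp1 stood at 20.5, 20.7, 19.2 and 19.9 CPM against 24.1, 24.0, 21.4 and 23.6 CPM, with no overlap and an adjusted p = 0.0806. Vamp2, the main vesicle SNARE of neurons, overlapped, at 444 ± 18.8 and 472 ± 23.0 CPM (SD, n = 4). Stx1a lost its call in 1 of the 20 alternative fits, the one with 1 surrogate variable, and its adjusted p ran up to 0.468 over all of them.

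Among the synaptotagmins Syt4 was higher and the 3 others were not called. Syt4 stood at 242, 220.4, 231 and 217 CPM in WT-labelled replicates 1 to 4 and at 274, 286, 274 and 282 CPM in C3 KO-labelled replicates 1 to 4. Every library labelled C3 KO lay above every library labelled WT. For Syt4, an unusual synaptotagmin found on dense-core and other non-synaptic vesicles, the log2 fold change was 0.29 ± 0.047 (SE) (adjusted p = 0.000193 by edgeR). Syt1, the fast calcium sensor of most synapses, stood at 886, 821, 871 and 891 CPM against 899.5, 1017, 957 and 963 CPM. Its groups did not overlap, and its log2 fold change of 0.15 ± 0.05 (SE) had an adjusted p = 0.0522. Syt11, which does not bind calcium, stood at 291 ± 13.7 and 278 ± 10.6 CPM (SD, n = 4), and was not called. Syt2, a fast sensor like Syt1 and the rarest of the group, stood at 5.13, 5.24, 5.10 and 6.22 CPM against 5.25, 5.47, 7.84 and 7.44 CPM. C3 KO replicates 3 and 4 and WT replicate 4 were high, the groups overlapped, and Syt2 was not called (log2 fold change 0.26 ± 0.16 (SE), adjusted p = 0.301). The log2 ratio of Syt4 to Syt11 reads changed from −0.355 ± 0.115 (SD, n = 4) to 0.00579 ± 0.0509, without overlap between the labels.

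The complexins leaned both ways, with none called higher and 1 called lower by edgeR. At an unadjusted p below 0.05 there was 1 complexin on the higher side, and DESeq2 and limma-voom called none higher. Cplx3, a complexin of ribbon synapses and of some amacrine cells, stood at 209, 237, 219 and 231 CPM against 198, 208, 188 and 200.1 CPM. The highest library labelled C3 KO, replicate 2, lay just under the lowest labelled WT, replicate 1. The log2 fold change was −0.17 ± 0.049 (SE) (adjusted p = 0.021 by edgeR). Cplx4, the other ribbon form and the least abundant per length, stood at 44.2, 51.3, 49.8 and 39.6 CPM against 40.3, 43.9, 38.5 and 47.1 CPM, which overlapped (log2 fold change −0.12). The complexins of conventional synapses overlapped too. Cplx2, the most abundant of the 49 genes per length, stood at 1205, 1149.9, 1177 and 1162 CPM against 1152, 1219.6, 1153 and 1234 CPM. Cplx1 had 91.6 ± 8.75 and 105 ± 9.47 CPM (SD, n = 4), and neither was called. Cplx3 lost its call without WT replicate 2 or 4 or C3 KO replicate 3 (adjusted p from 0.0504 to 0.0772), with either covariate, and on log2(RPKM + 1) or log2(RPKM + 0.1).

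Of the 10 vesicle genes, Sv2a and Sv2c were higher and Syp was lower. DESeq2 and limma-voom each also called 2 higher and 1 lower, and at an unadjusted p below 0.05 there were 2 on the higher side and 4 on the lower. SV2 proteins are transporter-like glycoproteins of the vesicle membrane. Sv2a stood at 375, 359.9, 366 and 363 CPM in WT-labelled replicates 1 to 4 and at 387, 405, 434 and 425 CPM in C3 KO-labelled replicates 1 to 4, without overlap. Its log2 fold change was 0.17 ± 0.047 (SE) (edgeR adjusted p = 0.0155). Sv2c stood at 19.8, 15.1, 20.8 and 14.97 CPM against 23.1, 22.9, 23.4 and 28.2 CPM. WT replicates 2 and 4 were low, C3 KO replicate 4 was high, and the groups did not overlap (log2 fold change 0.46 ± 0.11 (SE), adjusted p = 0.00687). Sv2b, the form found at photoreceptor terminals, leaned the other way at 433, 454, 424 and 439 CPM against 394, 438, 364 and 411 CPM and was not called (log2 fold change −0.12, adjusted p = 0.117). The log2 ratio of Sv2b to Sv2c went from 4.65 ± 0.286 (SD, n = 4) to 4.05 ± 0.172, and that of Sv2a to Sv2b from −0.258 ± 0.06 (SD, n = 4) to 0.0407 ± 0.156, both without overlap between the labels.

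Syp stood at 1144, 1128, 1082 and 1028 CPM in WT-labelled replicates 1 to 4 and at 957, 1006, 952 and 1040.2 CPM in C3 KO-labelled replicates 1 to 4. WT replicate 4 overlapped C3 KO replicate 4, and the difference passed by a small margin (log2 fold change −0.15 ± 0.05 (SE), adjusted p = 0.0493 by edgeR). Slc17a7, which fills the vesicles of photoreceptors and bipolar cells with glutamate, stood at 276, 279.8, 266 and 242 CPM against 208, 265, 225 and 248 CPM, overlapped and was not called (log2 fold change −0.17, adjusted p = 0.0887). Syngr1, a tetraspan relative of Syp, had a log2 fold change of −0.14 (adjusted p = 0.103) and Syngr3 one of 0.11. Rab3a, the vesicle GTPase, stood at 213 ± 11.9 and 212 ± 12.3 CPM (SD, n = 4). The synapsins, which tether vesicles at conventional synapses and are lacking at ribbons, varied widely among libraries of a label and were not called. Syn1 ran from 114 to 165 CPM and Syn2 from 26.4 to 42.8 CPM among the WT-labelled libraries, lowest in replicate 2 and highest in replicate 1. Syp lost its call without WT replicate 1, 2 or 3 or C3 KO replicate 1, 3 or 4 (adjusted p from 0.0507 to 0.132) and Sv2a without WT replicate 2 or 3 or C3 KO replicate 3 or 4 (adjusted p from 0.0512 to 0.0783). All 3 called vesicle genes lost it with either covariate.

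The active zone held 7 of the 19 calls, with 6 of 9 genes higher and 1 lower. Rims1, a scaffold that ties vesicles to calcium channels, had the smallest p of the 49 genes. Rims1 stood at 279, 258, 281 and 266 CPM in WT-labelled replicates 1 to 4 and at 339, 334, 369 and 369.5 CPM in C3 KO-labelled replicates 1 to 4. Every C3 KO value lay well above every WT value. The log2 fold change was 0.38 ± 0.049 (SE) (adjusted p = 2.04e-05 by edgeR). Its paralogue Rims2 stood at 89.5, 85.0, 84.7 and 82.9 CPM against 86.7, 84.1, 84.6 and 82.7 CPM, the groups overlapped, and the log2 fold change was −0.017 ± 0.051 (SE). The log2 ratio of Rims1 to Rims2 went from 1.66 ± 0.0556 (SD, n = 4) to 2.06 ± 0.0964, without overlap.

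Unc13a and Unc13b prime docked vesicles for fusion. Unc13a stood at 128, 121, 121 and 117 CPM in WT-labelled replicates 1 to 4 and at 141, 146, 156 and 151 CPM in C3 KO-labelled replicates 1 to 4. No values overlapped, and the log2 fold change was 0.29 ± 0.049 (SE) (edgeR adjusted p = 0.000407). Unc13b stood at 274, 299, 262 and 266 CPM against 307, 339, 279.7 and 311 CPM. WT replicate 2 and C3 KO replicate 3 overlapped, and its log2 fold change was 0.17 ± 0.056 (SE) (adjusted p = 0.0473). Erc1 and Erc2 are ELKS scaffolds that bind RIM and bassoon. Erc2 stood at 107, 96.2, 104 and 103 CPM in WT-labelled replicates 1 to 4 and at 117, 125, 128 and 126 CPM in C3 KO-labelled replicates 1 to 4, with no overlap (log2 fold change 0.27 ± 0.051 (SE), adjusted p = 0.000852 by edgeR). Erc1 stood at 114, 85.1, 102 and 100.2 CPM against 112, 115, 128 and 119 CPM. WT replicate 1 lay inside the C3 KO range, and the log2 fold change was 0.24 ± 0.07 (SE) (adjusted p = 0.0304).

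Pclo and Bsn encode the giant scaffolds piccolo and bassoon, which ribbon and conventional synapses share. Pclo stood at 201, 172, 193 and 186 CPM against 197, 229, 213 and 205 CPM. The groups overlapped in WT replicate 1 and C3 KO replicate 1, and the log2 fold change was 0.17 ± 0.054 (SE) (edgeR adjusted p = 0.0417). Bsn stood at 161, 126, 158 and 157 CPM against 155, 154, 181 and 162 CPM and was not called (adjusted p = 0.327), and WT replicate 2 was far below the other 7 libraries. Ctbp2 encodes RIBEYE, the main protein of the ribbon, and from another start the nuclear corepressor CtBP2, which gene counts do not separate. Ctbp2 stood at 249, 261, 256 and 258 CPM in WT-labelled replicates 1 to 4 and at 209, 251, 226 and 235 CPM in C3 KO-labelled replicates 1 to 4. Only C3 KO replicate 2 reached the WT range. The log2 fold change was −0.15 ± 0.051 (SE) (adjusted p = 0.047 by edgeR). Pclo lost its call without WT replicate 2, 3 or 4 or C3 KO replicate 2, 3 or 4 (adjusted p from 0.0813 to 0.185), Unc13b without WT replicate 1, 3 or 4 or C3 KO replicate 1, 2 or 4 (adjusted p from 0.0675 to 0.178), Erc1 without WT replicate 2, 3 or 4 or C3 KO replicate 2, 3 or 4 (adjusted p from 0.0518 to 0.103) and Ctbp2 without WT replicate 2, 3 or 4 or C3 KO replicate 1, 3 or 4 (adjusted p from 0.0751 to 0.177). Scaling by RLE ended the calls of Pclo and Unc13b, scaling by the upper quartile that of Ctbp2, and of the 7 called genes of the active zone Rims1 and Unc13a kept theirs with each covariate.

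**Figure D4:**
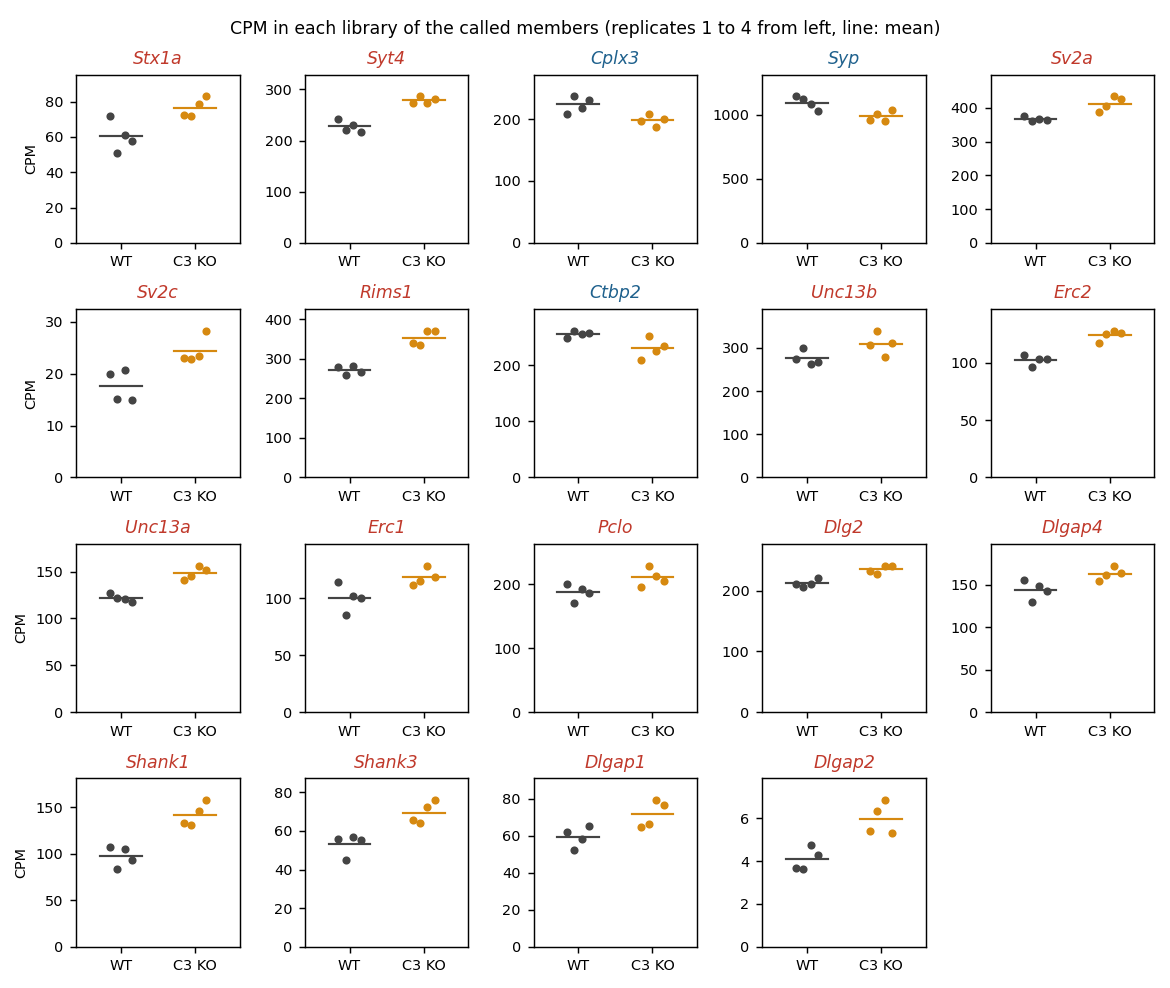
CPM from 0 upward in each library of the 19 called genes, with replicates 1 to 4 of each label from left to right and the mean as a line. Titles in red mark the 16 genes called higher and in blue the 3 called lower. Rims1, Syt4, Unc13a and Shank1 have no overlap, while Syp, Ctbp2, Pclo and Unc13b do.

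The stretches before the transcription start are shown for Rims1, which had the smallest p, and for the 3 genes called lower, since these differ in direction. They hold the 250 bases 5′ to 3′ before a RefSeq start on build GRCm38.p6, which is not the build of the deposited counts. Capitals mark GGGCGG, a GC box, TAATCC, the core site that the photoreceptor factors Crx and OTX2 bind, and CACGTG, an E-box, each searched on both strands. TAATCC reads as GGATTA on the strand printed for Syp and Ctbp2. No marked match overlaps another.
Rims1 (chr1:22806159-22806408, minus strand): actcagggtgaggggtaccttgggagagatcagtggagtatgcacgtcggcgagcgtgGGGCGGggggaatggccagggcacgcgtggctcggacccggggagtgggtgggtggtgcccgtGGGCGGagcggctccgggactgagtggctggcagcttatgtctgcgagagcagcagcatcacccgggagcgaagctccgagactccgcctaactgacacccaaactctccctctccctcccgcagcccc
Syp (chrX:7638330-7638579, plus strand): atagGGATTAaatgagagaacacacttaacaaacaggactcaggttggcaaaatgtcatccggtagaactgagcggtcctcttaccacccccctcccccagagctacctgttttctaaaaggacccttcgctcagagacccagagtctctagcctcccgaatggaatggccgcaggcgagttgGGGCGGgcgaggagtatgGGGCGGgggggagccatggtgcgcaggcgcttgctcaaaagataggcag
Ctbp2 (chr7:133015248-133015497, minus strand): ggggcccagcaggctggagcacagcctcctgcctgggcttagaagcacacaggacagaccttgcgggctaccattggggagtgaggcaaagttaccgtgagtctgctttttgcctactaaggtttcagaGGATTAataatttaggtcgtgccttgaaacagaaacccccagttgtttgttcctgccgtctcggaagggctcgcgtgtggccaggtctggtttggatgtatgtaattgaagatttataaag
Cplx3 (chr9:57606282-57606531, minus strand): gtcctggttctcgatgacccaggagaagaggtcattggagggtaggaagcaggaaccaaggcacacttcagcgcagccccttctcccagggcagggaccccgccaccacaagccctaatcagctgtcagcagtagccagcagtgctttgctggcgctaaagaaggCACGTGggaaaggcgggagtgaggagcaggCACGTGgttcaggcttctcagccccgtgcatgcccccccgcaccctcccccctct

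RefSeq windows were matched for 38 of the 49 genes, 59 windows in all. The median GC content was 56.4% over these windows and 52.4% over all 32851 windows of the same length. Its part in the matches below was not tested. The GC box lay in 44.1% of the member windows and in 32.7% of all windows. It was found for 10 of the 13 matched genes called higher, for 1 of the 3 called lower and for 13 of the 22 not called. Counts of genes, here and below, take any window of a gene and are not comparable with shares of windows. A gene with more windows has more chances of a match, and no such count was made over all genes. TAATCC lay in 8.47% of the member windows and 6.25% of all windows. It was found upstream of Syp and Ctbp2 among the 3 lower genes, of none of the 13 higher genes, and of Dlg4 and Sv2b among those not called. Ctbp2 has a second window 66613 bases away that holds none of the 3 motifs. CACGTG occurred in 10.2% of member windows and 6.02% of all, with 2 copies upstream of Cplx3. These are matches of letters in one window and were not tested for binding.

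None of the 5 neurexins and neuroligins was called in either direction by edgeR or limma-voom. At an unadjusted p below 0.05, 2 lay on the higher side and none on the lower, and DESeq2 called those 2 higher. They were Nrxn2, a presynaptic neurexin, and Nlgn2, the neuroligin of inhibitory synapses. Nlgn2 stood at 210.4, 199, 205 and 197 CPM against 219, 218, 221 and 229 CPM, without overlap (log2 fold change 0.13 ± 0.044 (SE), adjusted p = 0.0527 by edgeR). Nrxn2 stood at 268, 224, 264 and 269 CPM against 280.3, 263, 309 and 323 CPM, and WT replicate 2 was the lowest of the 8 (log2 fold change 0.20 ± 0.066 (SE), adjusted p = 0.0535). Nlgn1, the neuroligin of excitatory synapses, had 68.1 ± 7.77 and 67.7 ± 3.46 CPM (SD, n = 4) and Nrxn3 127 ± 6.88 and 128 ± 7.16 CPM. Nlgn3, found at both kinds of synapse and the rarest of the 5 per length, stood at 58.7, 38.9, 58.2 and 46.1 CPM against 57.8, 50.2, 64.2 and 61.3 CPM. Replicate 2 was the lowest library under each label, and Nlgn3 was not called (log2 fold change 0.21 ± 0.13 (SE)).

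Postsynaptic scaffolds had 6 of 12 genes higher and none lower by edgeR, DESeq2 or limma-voom, with no member on the lower side at an unadjusted p below 0.05. Shank proteins form the deep layer of the postsynaptic density. Shank1 stood at 107, 83.5, 106 and 93.5 CPM in WT-labelled replicates 1 to 4 and at 133, 131, 146 and 157 CPM in C3 KO-labelled replicates 1 to 4. No value overlapped, and the difference was 1.45-fold (log2 fold change 0.54 ± 0.075 (SE), adjusted p = 0.000191 by edgeR). Shank3 stood at 55.8, 45.1, 56.8 and 55.1 CPM against 65.5, 64.0, 72.4 and 75.8 CPM, with no overlap (log2 fold change 0.38 ± 0.073 (SE), adjusted p = 0.00124). Shank2 stood at 75.8, 58.9, 70.6 and 68.3 CPM against 74.6, 71.7, 78.6 and 79.1 CPM, which overlapped (log2 fold change 0.15 ± 0.066 (SE), adjusted p = 0.132).

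WT replicate 2 was the lowest of the WT-labelled libraries for all 3 Shank genes, and for 9 of the 12 scaffolds, 75.0%. The log2 ratio of Shank1 to Shank2 went from 0.511 ± 0.0515 (SD, n = 4) to 0.899 ± 0.0663, that of Shank1 to Shank3 from 0.873 ± 0.0775 (SD, n = 4) to 1.03 ± 0.0191 and that of Shank2 to Shank3 from 0.363 ± 0.0632 (SD, n = 4) to 0.132 ± 0.0552. None of these ratios of reads overlapped between the labels.

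SAPAP proteins, encoded by Dlgap genes, bridge PSD-95 proteins and Shank. Dlgap2, the rarest, stood at 3.69, 3.61, 4.73 and 4.28 CPM against 5.40, 6.35, 6.83 and 5.28 CPM, without overlap, and had the largest fold change of the 49 genes with a wide error (0.55 ± 0.16 (SE), edgeR adjusted p = 0.0256). Dlgap1 stood at 62.3, 52.1, 58.2 and 65.2 CPM against 64.7, 66.5, 79.2 and 76.8 CPM, where WT replicate 4 reached the lowest C3 KO value (log2 fold change 0.27 ± 0.075 (SE), adjusted p = 0.019). Dlgap4 stood at 156, 129.7, 148 and 143 CPM against 154, 162, 172 and 164 CPM, and WT replicate 1 lay inside the C3 KO range (log2 fold change 0.18 ± 0.054 (SE), adjusted p = 0.0307). Dlgap3 was not called, at 94.0 ± 8.69 and 100.3 ± 8.32 CPM (SD, n = 4).

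Dlg genes encode the membrane-associated guanylate kinases that bind receptor tails. Dlg2 stood at 211, 207, 211 and 222 CPM against 232, 227, 240.4 and 241 CPM, with no overlap (log2 fold change 0.15 ± 0.045 (SE), edgeR adjusted p = 0.0298). Dlg4, which encodes PSD-95 and was the most abundant scaffold per length, stood at 308, 296, 298 and 284 CPM against 296, 337, 293 and 315 CPM, which overlapped (log2 fold change 0.066). The log2 fold change was 0.024 for Dlg3 and −0.064 for Dlg1. These 3 and Homer1, which links Shank to group I glutamate receptors, at 47.5 ± 4.02 and 48.9 ± 0.861 CPM, were not called. Dlg2 lost its call without WT replicate 1, 2 or 3 or C3 KO replicate 1, 3 or 4 (adjusted p from 0.0505 to 0.116), Dlgap1 without WT replicate 2 or 3 or C3 KO replicate 3 or 4 (adjusted p from 0.0578 to 0.0813), Dlgap2 without WT replicate 1 or 2 or C3 KO replicate 2 or 3 (adjusted p from 0.0537 to 0.0919) and Dlgap4 without WT replicate 2, 3 or 4 or C3 KO replicate 3 or 4 (adjusted p from 0.0626 to 0.145). Of the 6 called scaffolds only Shank1 kept its call with each covariate. Shank3, Dlg2, Dlgap1, Dlgap2 and Dlgap4 lost it with both.

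Of 42 pairs of paralogues within 16 families, 14 had log2 CPM ratios that did not overlap between the labels. Each of the 14 reached 0.0286, the smallest 2-sided exact permutation p that 4 against 4 libraries allow, and after adjustment over the 42 pairs none passed (adjusted p = 0.0857). With this smallest p no pair could pass unless many more than 14 of the 42 reached it. The test therefore cannot decide whether paralogues differed, and a difference is not established. How often ratios of other genes overlap between the labels was not tested. Among the widest shifts were Sv2b to Sv2c (−0.60), Dlgap2 to Dlgap3 (0.45), Rims1 to Rims2 (0.40), Shank1 to Shank2 (0.39) and Syt4 to Syt11 (0.36). The pairs Unc13a to Unc13b (0.12) and Erc1 to Erc2 (−0.031) overlapped between the labels.

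Synaptic genes outside the 49 were taken from 6 lists by function, which were chosen with earlier results of these data known. The lists held 151 genes, of which 148 were tested. Of these 37 were called higher, 25.0% against the 8.33% of all genes, and 2 lower, 1.35% against 5.98%. Their median log2 fold change was 0.11, and WT replicate 2 was the lowest WT-labelled library for 58.1% of them. In the endocytosis list none of 15 genes of vesicle retrieval was called in either direction by edgeR, DESeq2 or limma-voom. At an unadjusted p below 0.05, 5 of them lay on the higher side and none on the lower. The 3 of smallest p were Sh3gl2, an endophilin, with a log2 fold change of 0.15 ± 0.053 (SE), Itsn1 with 0.12 ± 0.05 (SE) and Snap91 with 0.13 ± 0.052 (SE). Whether this list differs from the others was not tested.

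**Figure D5:**
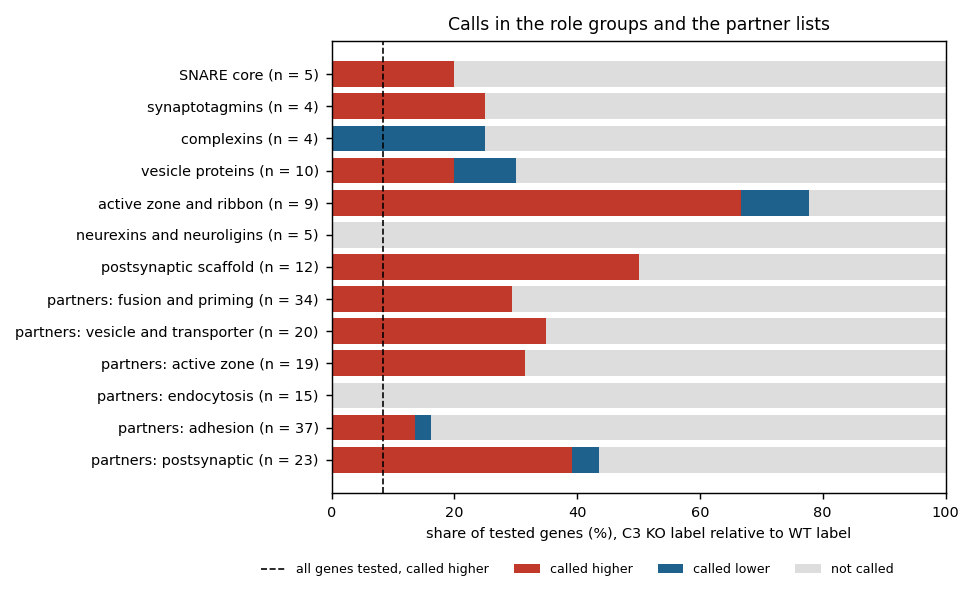
Share of the tested genes in each role group of the 49 genes and in each of the 6 partner lists that was called higher (red), lower (blue) or not called (grey), with n beside each name. The dashed line is the 8.33% of all genes tested that were called higher. The bars of the active zone group and of the postsynaptic scaffold group have the longest red parts, and the bar of the endocytosis list is wholly grey.

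Postsynaptic partners had 9 of 23 higher and 1 lower by edgeR. DESeq2 called 2 lower and limma-voom 1, and 3 lay on the lower side at an unadjusted p below 0.05. Homer2 had the largest fold change of all the synaptic genes examined. Homer2 stood at 21.1, 18.5, 25.5 and 20.4 CPM in WT-labelled replicates 1 to 4 and at 44.9, 43.3, 42.1 and 45.8 CPM in C3 KO-labelled replicates 1 to 4. That was 2.06-fold (log2 fold change 1.04 ± 0.083 (SE), adjusted p = 1.78e-08 by edgeR), while Homer3 was 1.21-fold lower (−0.28, adjusted p = 0.00178). Homer1, among the 49, was not called. Begain, a partner of PSD-95, stood at 40.8, 35.2, 36.0 and 38.5 CPM against 55.7, 44.4, 51.9 and 53.5 CPM (log2 fold change 0.45 ± 0.073 (SE), adjusted p = 0.000243). Homer2 and Begain lacked overlap between the labels. Other higher genes included Iqsec2, Iqsec3, Grip1, Grip2 and Camk2g. Camk2g lost its call without WT replicate 2, 3 or 4 or C3 KO replicate 1, 2, 3 or 4 (adjusted p from 0.0578 to 0.131), Iqsec2 without WT replicate 2 or 3 or C3 KO replicate 1, 3 or 4 (adjusted p from 0.081 to 0.138), Grip1 without WT replicate 2 or 4 or C3 KO replicate 3 or 4 (adjusted p from 0.0568 to 0.129) and Grip2 without C3 KO replicate 3 (adjusted p = 0.0596). All 5 lost it with the surrogate variable, and Camk2g, Grip1 and Grip2 also with the Y-linked covariate.

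Fusion and priming partners had 10 of 34 higher and none lower by edgeR, DESeq2 or limma-voom, with 2 on the lower side at an unadjusted p below 0.05. The higher genes were Syt3, Syt5, Syt6, Syt7, Syt16, Snap47, Napb, Doc2a, Unc13c and Cadps. Syt16 stood at 50.8, 45.3, 47.5 and 45.02 CPM against 62.0, 58.5, 64.5 and 63.1 CPM (log2 fold change 0.39 ± 0.06 (SE), edgeR adjusted p = 0.000131). Snap47, a SNAP25 relative, stood at 162, 155, 139.8 and 151 CPM against 186, 181, 190.1 and 193 CPM (log2 fold change 0.30 ± 0.049 (SE), adjusted p = 0.00028). Napb, the neuronal SNAP that helps take SNARE complexes apart, stood at 307, 298, 290.1 and 279.5 CPM against 336, 345, 345 and 345 CPM (log2 fold change 0.22 ± 0.045 (SE), adjusted p = 0.00185). All 3 had no overlap between the labels. Cadps lost its call without WT replicate 2, 3 or 4 or C3 KO replicate 3 or 4 (adjusted p from 0.061 to 0.139), Doc2a without WT replicate 2, 3 or 4 or C3 KO replicate 1, 3 or 4 (adjusted p from 0.0602 to 0.0795), Syt3 without WT replicate 2 or 4 or C3 KO replicate 3 or 4 (adjusted p from 0.0508 to 0.063) and Unc13c without WT replicate 2 or 4 or C3 KO replicate 2, 3 or 4 (adjusted p from 0.0673 to 0.129). These 4 and Syt5, Syt6 and Syt7 lost it with each covariate.

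Vesicle and transporter partners had 7 of 20 higher and none lower by edgeR, DESeq2 or limma-voom, with none on the lower side at an unadjusted p below 0.05. Slc18a2, the vesicular monoamine transporter, stood at 40.6, 30.8, 40.2 and 35.5 CPM against 50.9, 50.3, 57.0 and 55.9 CPM (log2 fold change 0.54 ± 0.078 (SE), edgeR adjusted p = 8.53e-05). Rab3c, a relative of Rab3a, stood at 168, 168, 164 and 166 CPM against 189.5, 195, 202 and 209.8 CPM (log2 fold change 0.26 ± 0.045 (SE), adjusted p = 0.000514). Synpr, a tetraspan relative of Syp, stood at 85.8, 85.6, 79.2 and 88.0 CPM against 101, 95.6, 97.2 and 111 CPM (log2 fold change 0.26 ± 0.056 (SE), adjusted p = 0.0034). None of the 3 overlapped between the labels. Slc17a6, the glutamate transporter of ganglion cell vesicles, was 1.28-fold higher at 139 ± 18.2 and 179 ± 11.1 CPM (SD, n = 4, adjusted p = 0.00498), beside the ganglion cell markers given above. Rab3b and Sncg, itself one of the ganglion cell markers, were also higher. Rab3b lost its call without WT replicate 2 or C3 KO replicate 2 or 4 (adjusted p from 0.0766 to 0.126) and Sncg without WT replicate 2 or C3 KO replicate 1, 3 or 4 (adjusted p from 0.0614 to 0.0901), and both lost it with each covariate.

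Active zone partners had 6 of 19 higher and none lower by edgeR or limma-voom, while DESeq2 called 1 lower and 1 lay on the lower side at an unadjusted p below 0.05. The higher genes included the pore subunits of the P/Q-type and N-type calcium channels of conventional terminals. Cacna1a stood at 70.02, 49.5, 63.5 and 54.6 CPM against 80.1, 77.4, 90.9 and 95.8 CPM, with no overlap (log2 fold change 0.53 ± 0.10 (SE), edgeR adjusted p = 0.00388), and Cacna1b was 1.32-fold higher (adjusted p = 0.00764). Cacna1f, the channel of ribbon terminals, was not called, at 84.7 ± 7.59 and 100.02 ± 15.1 CPM (SD, n = 4). Rims3, a short RIM, stood at 81.0, 73.2, 77.1 and 78.3 CPM against 88.9, 87.9, 102 and 98.9 CPM (log2 fold change 0.28 ± 0.058 (SE), adjusted p = 0.00201), and the liprin Ppfia4 at 57.1, 50.5, 60.1 and 52.0 CPM against 70.02, 63.4, 85.6 and 84.7 CPM (log2 fold change 0.46 ± 0.089 (SE), adjusted p = 0.00242). Rims4 was 1.18-fold and the RIM-binding protein Rimbp2 1.30-fold higher.

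Adhesion partners had 5 of 37 higher (13.5%) and 1 lower (2.7%) by edgeR, against 8.33% and 5.98% of all genes tested. DESeq2 called 3 lower and limma-voom 2, and 4 lay on the lower side at an unadjusted p below 0.05. Lrfn5, a synaptic leucine-rich repeat protein, stood at 43.8, 38.9, 43.0 and 39.7 CPM against 52.2, 56.7, 58.3 and 60.5 CPM (log2 fold change 0.46 ± 0.065 (SE), edgeR adjusted p = 4.9e-05). Ptprd, a presynaptic receptor phosphatase, stood at 226, 196, 208 and 212 CPM against 272, 249, 265 and 265 CPM (log2 fold change 0.32 ± 0.049 (SE), adjusted p = 0.000131). Other higher genes included Flrt2, which lost its call with the surrogate variable, and Clstn2, which lost it without C3 KO replicate 4 (adjusted p = 0.0519) and with each covariate. Slitrk6 was lower, at 34.7, 34.9, 33.0 and 35.003 CPM against 26.3, 24.8, 27.5 and 24.3 CPM (log2 fold change −0.42 ± 0.072 (SE), adjusted p = 0.000401). Of the 39 called partner genes 10 kept the call in all 20 alternative fits, among them Begain, Cacna1a, Homer2, Lrfn5, Ptprd, Rab3c, Slc18a2, Snap47 and Syt16. Among the partners with values above, Cacna1b and Ppfia4 lost the call with both covariates, Homer3 and Slitrk6 with the Y-linked one, and Napb, Rims3, Slc17a6 and Synpr with the surrogate variable. Rimbp2 lost it without WT replicate 2 or 4 or C3 KO replicate 3 or 4 (adjusted p from 0.058 to 0.078) and Rims4 without WT replicate 2, 3 or 4 or C3 KO replicate 1, 3 or 4 (adjusted p from 0.0525 to 0.145), and both lost it with each covariate and on log2(RPKM + 1) or log2(RPKM + 0.1).

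The implied transcript length, taken from reads per RPKM in the deposited tables, was long in the 49 genes. Its median was 8.41 kb in the 16 called higher, 5.53 kb in the 30 not called and 3.43 kb over all genes tested. Genes called higher in the whole table had a median of 4.81 kb and those called lower 4.06 kb. Long transcripts collect more reads at a given level, and the part of length in the calls was not tested.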

How the data were processed

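The libraries came from poly(A) RNA and a directional NEBNext kit, per the labels' protocols. The submitters' processing notes name STAR, HTSeq, mm9 and NCBIM37. The authors deposited raw read counts per gene, in which every gene reaches 15 reads in at least 1 library, and a table of log2 RPKM values. Whether strand was used in counting was not stated, so overlapping antisense genes cannot be told apart.

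The test was run in R 4.3.3 with edgeR 4.0.16 (filterByExpr, 259 genes left out, TMM, robust quasi-likelihood fit, no covariate). Each SE was derived from the F value of a gene and its log2 fold change. The procedure was also run on simulated data, and the outcome is not reported here. Alternatives were RLE and upper-quartile scaling, DESeq2 1.42.0, limma-voom (limma 3.58.1), other filters, non-robust dispersion, limma on log2(RPKM + 1) and log2(RPKM + 0.1), a replicate block, Y-linked log2 CPM or 1 surrogate variable (sva 3.50.0) as a covariate, and each library left out. Log2 ratios of paralogues' CPM were compared by exact permutation (scipy 1.17.1), a test added after the data were seen. Values in every library are given for called members and for the highest and lowest member of each role by RPKM. In each partner list the 3 genes of smallest p have values and called genes may be named. Values of some partner genes are not reported here, although the counts include them. Any other gene with values was picked after they were seen. The members, roles and lists were chosen with earlier results of these data known. Libraries of a label differed by more than sampling noise (chi-square per degree of freedom at least 3.72).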

Additional observations from a re-analysis of the deposited data

Results flagged for a closer look

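In 11 of 178 groups of 4 libraries, taken from the 49 genes and the called partner genes and C3, 1 library lay far from the other 3 (Dixon's test). Chance flags about 1 in 20 groups. WT replicate 2 was the low one in 6 of them. Bsn stood at 126 CPM there, with the others of that label at 157 to 161. Nrxn2 stood at 224 CPM against 264 to 269. Shank3 stood at 45.1 CPM against 55.1 to 56.8. Dlgap3 stood at 81.0 CPM against 97.3 to 98.8. The partner genes Iqsec3 at 182 CPM against 213 to 218 and Rab3b at 24.0 CPM against 28.8 to 29.1 completed these.

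WT replicate 4 was the high one for Syt2, at 6.22 CPM against 5.10 to 5.24, and for Homer3, at 78.8 CPM against 71.8 to 72.9. C3 KO replicate 4 was high for Sv2c, at 28.2 CPM against 22.9 to 23.4. C3 KO replicate 1 was low for Napb, at 336 CPM against 345. WT replicate 3 was low for Slitrk6, at 33.0 CPM against 34.7 or more.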

How the results depend on the processing

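Over 980 fits of the 49 genes, 20 alternatives each, 835 stayed on the same side of the threshold, 118 lost a call, 26 gained one and 1 turned to a call in the other direction. That one was Syn1, not called by edgeR and called lower with 1 surrogate variable (log2 fold change −0.24, adjusted p = 0.041). All of the 118 lost calls fell on the genes called higher or lower, 16 and 3, since the 30 not called had no call to lose. Of the 835, 43 changed sign with no call under either fit, in 17 genes. Of the 49 genes, 1 was called lower with upper-quartile scaling (5.6% of all genes) and 1 with non-robust dispersion (5.94%). On log2(RPKM + 1) 9 of the 49 genes were higher and 0 lower, with 819 in all genes called higher and 23 partners, and log2(RPKM + 0.1) gave 9, 0, 808 and 23. The Y-linked covariate left 6 higher and 0 lower, 349 in all genes called higher and 181 in all genes called lower, and 18 and 0 partners. The surrogate variable left 5 and 1, 280 and 173 of all genes, and 10 partners higher. Partners called lower numbered 6 with DESeq2 and 4 with no expression filter. Without 1 library, 9 to 18 of the 49 genes were higher and 0 to 5 lower, all genes called higher numbered 761 to 1515 and all genes called lower 544 to 1027, with 24 to 43 and 2 to 7 partners. Without C3 KO replicate 2, 5 of the 49 genes were lower (6.42% of all genes), and 1 without C3 KO replicate 1 (4.89%). Without C3 KO replicate 3, 848 were in all genes called higher. The cause of these shifts was not tested, and a fit without 1 library has fewer samples.

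With replicate number as a block 18 of the 49 genes were higher and 3 lower, all genes called higher numbered 1415 and all genes called lower 985, with 43 and 3 partners. Same-numbered libraries did not deviate together (correlations −0.0597, 0.0885, 0.0038 and −0.0561), not every library correlated best with its own number, and the numbers are not read as a pairing. The block ended the calls of Syp and Pclo and added Slc17a7, Cplx1, Nrxn2 and Nlgn3.

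Every one of the 49 genes had at least 62 reads in each library, so low counts limit Dlgap2 and Syt2 most. With 4 libraries per label a gene that missed the threshold is not shown to be equal between labels.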
